A study of Mus musculus with 7 samples.

Results

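The genes described here are those of ceramide and sphingolipid metabolism, in 3T3-L1 adipocytes kept in an inhibitor of stearoyl-CoA desaturase (SCD) or in its solvent. They were taken by name from a list of 38 genes, and a gene counted as measured where the array annotation gave at least 1 row of the value table to it alone. That held for 36 of the 38, out of 18820 genes measured in all. Cers1 and Ormdl2 stood only in rows that the annotation shares with other genes, and no value is given for them. 3T3-L1 is an established mouse line of fibroblast-like cells that turn into fat cells under hormones. The SCD inhibitor group held 3 arrays of cells given 1 µM of a commercial SCD inhibitor for the whole of differentiation, and the DMSO group held 4 arrays of cells given as much DMSO. The name of the compound is not given in the sources used here. Cells of both groups spent 2 days in human insulin, dexamethasone and isobutylmethylxanthine, then stayed in human insulin, and gave total RNA on day 7. The sample labels say pre-adipocyte and the design text adipocyte. Whether replicates were grown separately is not said. The p-values cover the spread among these arrays alone, and that spread may be technical.

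Sphingolipids are built from serine and palmitoyl-CoA, which serine palmitoyltransferase joins at the membrane of the endoplasmic reticulum. The product is reduced, linked to a fatty acyl chain by a ceramide synthase and desaturated to ceramide, which then becomes sphingomyelin, glycosphingolipids or ceramide 1-phosphate. Ceramidases cut ceramide to sphingosine, and sphingosine kinases turn that into sphingosine 1-phosphate, a signal read by receptors at the cell surface or destroyed by a lyase. SCD enzymes use saturated acyl-CoAs, among them the palmitoyl-CoA that serine palmitoyltransferase also uses, and ceramide is widely studied in fat tissue for its link to insulin action.

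All levels are log2 values from RMA, which subtracts background, gives every array the same distribution of probe values and condenses several probes into 1 value per row. Array medians over all rows ran from 4.88 to 4.94, and the lowest was that of SCD inhibitor 1. This array had the lowest value of its group in 21 of the 36 sphingolipid genes and in 47.6% of all genes, so results are also given without it where that ended or made a call. All 8 adipocyte markers lay above the median gene level of 5.59, between 10.26 and 12.71, and none passed the test. Of 4 macrophage markers 1 lay above that median and of 4 endothelial markers none did, and none of these passed either. Of 5 preadipocyte markers measured, Pdgfra, Pdgfrb and Dlk1 were called higher, with log2 differences of 0.89, 0.51 and 0.32. Of all genes 3.62% were called higher, or 6.76% of those above the median level, and 5 markers are too few to compare with these shares. Thy1 (0.29) and Cd34 (0.03) did not pass. The log2 of the summed linear levels of the 5 was 11.77 to 11.81 with the inhibitor and 11.20 to 11.38 in DMSO. Dlk1, the brightest of the 5 at a mean level of 10.22, weighs most in this sum. Cd34 was near the bottom of the scale at 3.72. The part of these markers in the results below was not tested.

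With the SCD inhibitor 1 sphingolipid gene rose and 3 fell, and the other 32 did not pass the test. Sphk1, the kinase that makes sphingosine 1-phosphate, was 1.35-fold higher (log2 difference 0.43, SE 0.044). The genes that fell were Acer2, a Golgi ceramidase (-0.59, SE 0.12), Sptlc2, a catalytic subunit of serine palmitoyltransferase (-0.31, SE 0.053), and Cerk, the ceramide kinase (-0.22, SE 0.050). The test was limma over all 18820 genes with 3 against 4 arrays, and a gene was called at a Benjamini-Hochberg adjusted p under 0.05. The 4 calls are 11.1% of the 36 genes, against 8.00% of all genes in either direction, 3.62% higher and 4.37% lower. Among the 28 sphingolipid genes above the median level the share was 14.3%, against 14.9% of all genes above it, so the number of calls was near the background. The count called lower was 0 without DMSO 2, SCD inhibitor 1 or SCD inhibitor 3 and 1 without DMSO 3 or DMSO 4, at an adjusted p under 0.05 in limma. The count called higher was 2 without DMSO 2 or SCD inhibitor 1. The median log2 difference of the 36 was -0.01, against -0.0037 over all genes, and none of the 36 differed by more than 0.59, while 1.35% of all genes differed by more than 0.6. In bulk RNA, fewer cells of a type and less RNA per cell cannot be told apart.

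**Figure D1:**
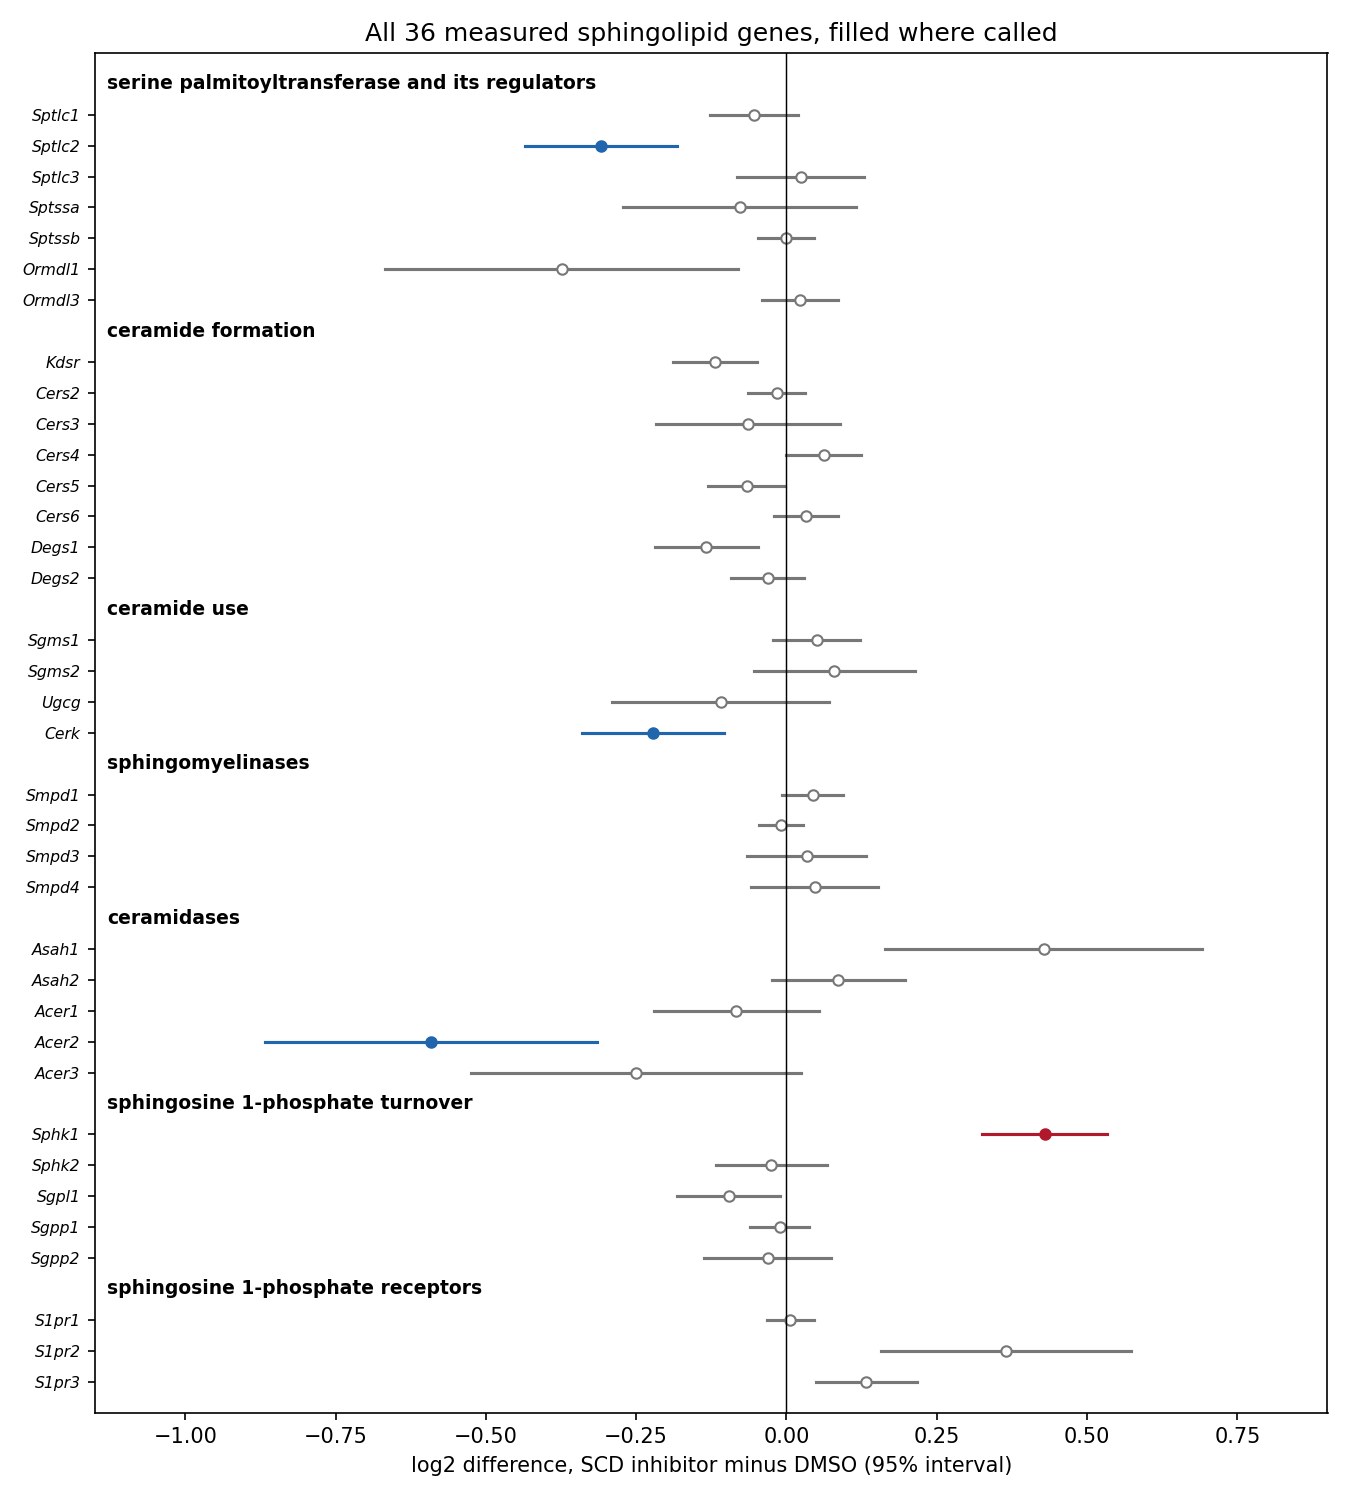
Log2 difference, SCD inhibitor minus DMSO, of each of the 36 measured sphingolipid genes with its 95% interval from limma (n = 3 and 4 arrays), ordered by role, with called genes filled (red higher, blue lower). Sphk1 lies to the right at 0.43, Acer2, Sptlc2 and Cerk lie to the left, and the intervals of Ormdl1, Kdsr, Cers5, Degs1, Asah1, Sgpl1, S1pr2 and S1pr3 also clear 0 without a call over all genes.

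**Figure D2:**
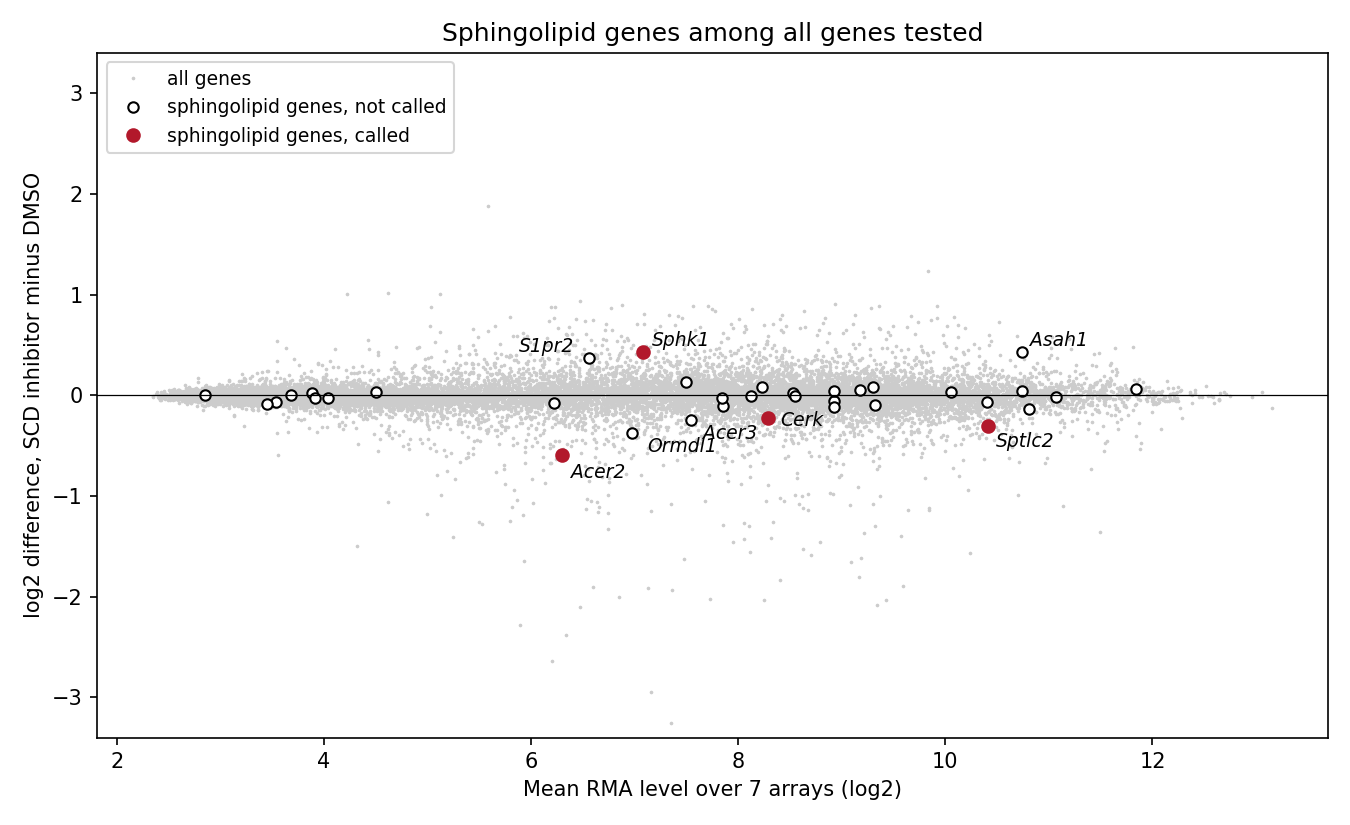
Mean level over the 7 arrays (log2) against the log2 difference, SCD inhibitor minus DMSO, with all 18820 genes in grey, uncalled sphingolipid genes as open circles and the 4 called ones in red. The 36 genes stay within 0.59 of a difference of 0, and the 8 of them below the median level of 5.59 stay within 0.084 of it.

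The sequence around a listed start of transcription is shown for each of the 4 called genes. Whether the changes arise at these promoters was not tested. The windows are RefSeq's, of 300 bases from 250 before to 50 after a listed start. Capitals mark the motifs searched on both strands, which were the E-box CACGTG, the CCAAT box, the GC box GGGCGG and the TATA motif TATAAA. None of these motifs contains another, and the complement of GGGCGG reads CCGCCC.
Sphk1 promoter, GRCm38.p6 chr11:116532194-116532493, + strand: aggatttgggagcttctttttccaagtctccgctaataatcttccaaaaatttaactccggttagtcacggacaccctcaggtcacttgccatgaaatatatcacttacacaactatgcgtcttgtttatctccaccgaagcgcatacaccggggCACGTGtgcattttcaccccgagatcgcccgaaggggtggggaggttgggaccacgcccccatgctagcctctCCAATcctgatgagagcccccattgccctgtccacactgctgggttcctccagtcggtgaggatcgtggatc
Sptlc2 promoter, GRCm38.p6 chr12:87388306-87388605, - strand: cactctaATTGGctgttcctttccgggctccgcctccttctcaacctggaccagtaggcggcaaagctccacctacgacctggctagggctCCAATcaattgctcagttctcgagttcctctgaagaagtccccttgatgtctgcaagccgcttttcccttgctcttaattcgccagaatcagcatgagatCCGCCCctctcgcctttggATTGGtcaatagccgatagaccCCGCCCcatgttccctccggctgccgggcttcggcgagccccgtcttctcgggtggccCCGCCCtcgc
Acer2 promoter, GRCm38.p6 chr4:86874164-86874463, + strand: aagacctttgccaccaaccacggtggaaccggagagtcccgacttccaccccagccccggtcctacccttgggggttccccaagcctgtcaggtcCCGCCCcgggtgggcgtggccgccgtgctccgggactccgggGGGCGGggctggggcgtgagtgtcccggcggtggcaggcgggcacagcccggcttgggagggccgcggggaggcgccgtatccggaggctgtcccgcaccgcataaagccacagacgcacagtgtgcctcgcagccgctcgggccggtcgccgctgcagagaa
Cerk promoter, GRCm38.p6 chr15:86186092-86186391, - strand: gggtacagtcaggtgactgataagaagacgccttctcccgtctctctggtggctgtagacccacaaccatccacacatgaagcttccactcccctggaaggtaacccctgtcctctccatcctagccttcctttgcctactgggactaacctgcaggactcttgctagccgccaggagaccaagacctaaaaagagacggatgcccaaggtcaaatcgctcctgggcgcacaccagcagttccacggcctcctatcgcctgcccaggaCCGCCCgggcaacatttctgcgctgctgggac
RefSeq lists 5 starts for Sphk1, and the window shown is the one with the most motif matches, 1 CACGTG and 1 CCAAT. Each of these motifs is in 2 of the 5 windows, and the arrays do not tell the starts apart. The Sptlc2 window holds 3 CCAAT and 3 GGGCGG, that of Acer2 2 GGGCGG and that of Cerk 1. Of 32851 mouse promoter windows, 7.15% hold CACGTG, 37.4% CCAAT, 35.7% GGGCGG and 13.6% TATAAA. Of the 48 windows of the 33 measured sphingolipid genes found in that table, 16.7% hold CACGTG, 31.2% CCAAT, 58.3% GGGCGG and 4.17% TATAAA. A gene counts once for each of its starts, so Sphk1 alone gives 2 of the 8 windows with CACGTG. The shares were not matched by expression level and are no test. A match is a string of letters and shows no binding.

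Serine palmitoyltransferase, the entry of the pathway, fell in 1 of its 3 large subunits. Of all genes above the median level 8.14% were called lower, and 3 genes are too few to compare with that share. Sptlc2 read 10.19, 10.25 and 10.26 on the SCD inhibitor arrays and 10.66, 10.54, 10.43 and 10.53 on the DMSO arrays. Every inhibitor array lay below every DMSO array, and the difference of -0.31 was a 1.24-fold decrease (95% interval -0.44 to -0.18, adjusted p = 0.0161 in limma). The call ended without DMSO 2 (adjusted p = 0.0536 in limma), DMSO 4 (0.0568), SCD inhibitor 1 (0.0621), SCD inhibitor 2 (0.0602) or SCD inhibitor 3 (0.0602), while the difference stayed between -0.35 and -0.25 in all 16 alternatives tried. Sptlc1, the subunit that pairs with Sptlc2, averaged 8.90 ± 0.055 (SD, n = 3) with the inhibitor and 8.95 ± 0.027 (n = 4) in DMSO and did not pass (-0.05, 95% interval -0.13 to 0.02). Sptlc3, the alternative partner of Sptlc1, read about the same on all arrays, at 3.90 to 3.91 with the inhibitor and 3.77 to 3.97 in DMSO, below the median level.

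The small subunits that activate the enzyme, Sptssa and Sptssb, did not pass. The difference was -0.08 for Sptssa, and Sptssb, near the bottom of the scale, averaged 2.85 in each group. The ORMDL proteins restrain the enzyme when ceramide is plentiful. Ormdl1 read 6.73, 6.55 and 7.01 with the inhibitor and 7.34, 7.09, 7.02 and 7.09 in DMSO. SCD inhibitor 3 at 7.01 lay next to DMSO 3 at 7.02, and the difference of -0.37 did not pass (SE 0.12, adjusted p = 0.138 in limma). Ormdl3 was level at 8.53 to 8.56 with the inhibitor and 8.46 to 8.55 in DMSO (difference 0.02, 95% interval -0.04 to 0.08).

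The steps that finish ceramide held no called gene among 8 measured, and at an unadjusted p under 0.05 they held Kdsr, Degs1 and Cers5. Of all genes 8.00% were called and 21.9% had such a p, or 38.3% of those above the median level. These 8 genes are too few to compare with the shares. Kdsr, which reduces the first product of the pathway, read 8.83, 8.91 and 8.84 with the inhibitor and 8.97, 8.94, 8.98 and 9.02 in DMSO. Its groups did not overlap, and the small difference of -0.12 did not pass over all genes (SE 0.029, adjusted p = 0.0602 in limma). It did pass without SCD inhibitor 2 (adjusted p = 0.0405 in limma), after a further quantile normalization (0.0404) and with the dimmer 50% of genes dropped (0.0435). Degs1, the desaturase that turns dihydroceramide into ceramide, read 10.78, 10.75 and 10.66 with the inhibitor and 10.81, 10.86, 10.88 and 10.91 in DMSO. Here too the groups were apart, with a difference of -0.13 that did not pass (SE 0.036, adjusted p = 0.0818 in limma). It passed with array weights (adjusted p = 0.0393 in limma) and with the dimmer 50% of genes dropped (0.0479).

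The ceramide synthases, which differ in the length of the acyl chain they attach, stayed close to their DMSO levels. Cers2, the synthase of very long chains, averaged 11.05 ± 0.012 (SD, n = 3) with the inhibitor and 11.07 ± 0.024 (n = 4) in DMSO (difference -0.02, 95% interval -0.06 to 0.03). Cers6, which prefers palmitoyl-CoA, averaged 10.07 ± 0.0070 (SD, n = 3) with the inhibitor and 10.04 ± 0.032 (n = 4) in DMSO (difference 0.03, 95% interval -0.02 to 0.08). Cers5, with a like preference, had a difference of -0.07 and Cers4 one of 0.06, and neither passed. The 95% intervals of these 4 genes lay between -0.13 and 0.12, which leaves the decrease seen in Sptlc2 outside them. Cers3, a synthase of skin, and Degs2, which adds a hydroxyl group, lay below the median level with differences of -0.06 and -0.03.

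Of the 4 enzymes that use ceramide 1 fell, too few genes to set against the 8.14% of all genes above the median level that fell. Cerk, which phosphorylates ceramide, read 8.14, 8.27 and 8.07 with the inhibitor and 8.40, 8.39, 8.33 and 8.41 in DMSO. The groups did not overlap, and SCD inhibitor 2 was the inhibitor array nearest to DMSO. The decrease of 0.22 was 1.17-fold (95% interval -0.34 to -0.10, adjusted p = 0.0427 in limma). This call was lost without DMSO 1 (adjusted p = 0.121 in limma), DMSO 2 (0.114), DMSO 3 (0.0791), DMSO 4 (0.127), SCD inhibitor 1 (0.124) or SCD inhibitor 3 (0.107), and with array weights (0.0628). Sgms1 and Sgms2, the sphingomyelin synthases, had differences of 0.05 and 0.08, and Ugcg, which makes glucosylceramide, one of -0.11, none of them past the test.

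None of the 4 sphingomyelinases, which return sphingomyelin to ceramide, passed, too few genes to compare with the 8.00% of all genes called. Their differences lay between -0.0091 and 0.047. Smpd1, the acid enzyme of lysosomes, read 10.75, 10.75 and 10.79 with the inhibitor and 10.72, 10.69, 10.74 and 10.72 in DMSO. These groups did not overlap, but the difference was 0.04 (adjusted p = 0.304 in limma). Smpd2 was stored at the same value on all DMSO arrays, 8.55, and at 8.54 to 8.56 with the inhibitor. Smpd4 had a difference of 0.05, and Smpd3 lay below the median level with one of 0.03.

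Of the 5 ceramidases 1 fell and none rose. Above the median level 8.14% of all genes fell and 6.76% rose, and 5 genes are too few to compare with these shares. Acer2 read 5.89, 6.13 and 5.87 with the inhibitor and 6.36, 6.55, 6.50 and 6.82 in DMSO. All inhibitor arrays were lower than all DMSO arrays, a 1.51-fold decrease (log2 -0.59, 95% interval -0.87 to -0.31, adjusted p = 0.0273 in limma). This call ended without DMSO 2 (adjusted p = 0.0802 in limma), DMSO 3 (0.0749), SCD inhibitor 1 (0.0931) or SCD inhibitor 3 (0.107). A second row of Acer2, dim at a mean level of 3.05, differed by -0.0054. With both rows averaged the difference was -0.30 and was still called (adjusted p = 0.0315 in limma).

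Asah1, the acid ceramidase of lysosomes, read 10.90, 10.97 and 11.09 with the inhibitor and 10.64, 10.27, 10.60 and 10.72 in DMSO. The groups did not overlap and DMSO 2 was the lowest array. The difference of 0.43 was close to that of Sphk1, but its SE was 0.11 and it did not pass (adjusted p = 0.0709 in limma). Without DMSO 2 it was 0.33 and passed (adjusted p = 0.0357 in limma). It also passed with the arrays centred on their medians (0.0276), after a further quantile normalization (0.04) and with the dimmer 25% (0.0452) or 50% (0.0242) of genes dropped.

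Acer3, an alkaline ceramidase of unsaturated long-chain ceramides, overlapped between groups at 7.25 to 7.54 with the inhibitor and 7.43 to 7.86 in DMSO (-0.25, SE 0.11). Asah2, the neutral ceramidase, had a difference of 0.09 and did not pass. Acer1, the skin ceramidase, lay below the median level with one of -0.08.

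Sphk1 had the smallest p of the 36 genes and was the 1 member called in the analysis as reported and in all 16 alternatives. It read 7.27, 7.39 and 7.33 on the SCD inhibitor arrays and 6.94, 6.96, 6.89 and 6.81 on the DMSO arrays. Every inhibitor array lay above every DMSO array. The adjusted p in limma was 0.00221 (95% interval of the difference 0.32 to 0.53), and over the alternatives it ran from 2.84e-04 to 0.0308. Sphk2, the other sphingosine kinase, read 7.83 to 7.84 with the inhibitor and 7.81 to 7.96 in DMSO and did not pass (-0.03, 95% interval -0.12 to 0.07).

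The enzymes that remove sphingosine 1-phosphate did not pass. Sgpl1, the lyase that destroys it, read 9.20, 9.31 and 9.27 with the inhibitor and 9.35, 9.31, 9.35 and 9.42 in DMSO, a difference of -0.10 (SE 0.036, adjusted p = 0.18 in limma). Sgpp1 and Sgpp2, the phosphatases that turn it back to sphingosine, had differences of -0.01 and -0.03.

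Among the receptors of sphingosine 1-phosphate, S1pr2 came closest to the threshold. It read 6.83, 6.87 and 6.62 with the inhibitor and 6.48, 6.36, 6.25 and 6.54 in DMSO. The groups did not overlap, SCD inhibitor 3 and DMSO 4 being the nearest arrays, and the difference of 0.37 did not pass (SE 0.087, adjusted p = 0.0539 in limma). It passed after a further quantile normalization (adjusted p = 0.0286 in limma), with the arrays centred (0.0276), with the trend and robust options (0.0471) and with the dimmer 25% (0.0343) or 50% (0.0182) of genes dropped. S1pr3 read 7.49, 7.59 and 7.63 with the inhibitor and 7.47, 7.44, 7.42 and 7.42 in DMSO, also without overlap, with a difference of 0.13 (SE 0.035, adjusted p = 0.0766 in limma). It passed without SCD inhibitor 1 (adjusted p = 0.0166 in limma), with the arrays centred (0.0171), with array weights (0.0215), after a further quantile normalization (0.049) and with the dimmer 50% of genes dropped (0.0456). S1pr1, the receptor of endothelial cells and lymphocytes, lay near the bottom of the scale at 3.67 to 3.70 with the inhibitor and 3.67 to 3.69 in DMSO.

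**Figure D3:**
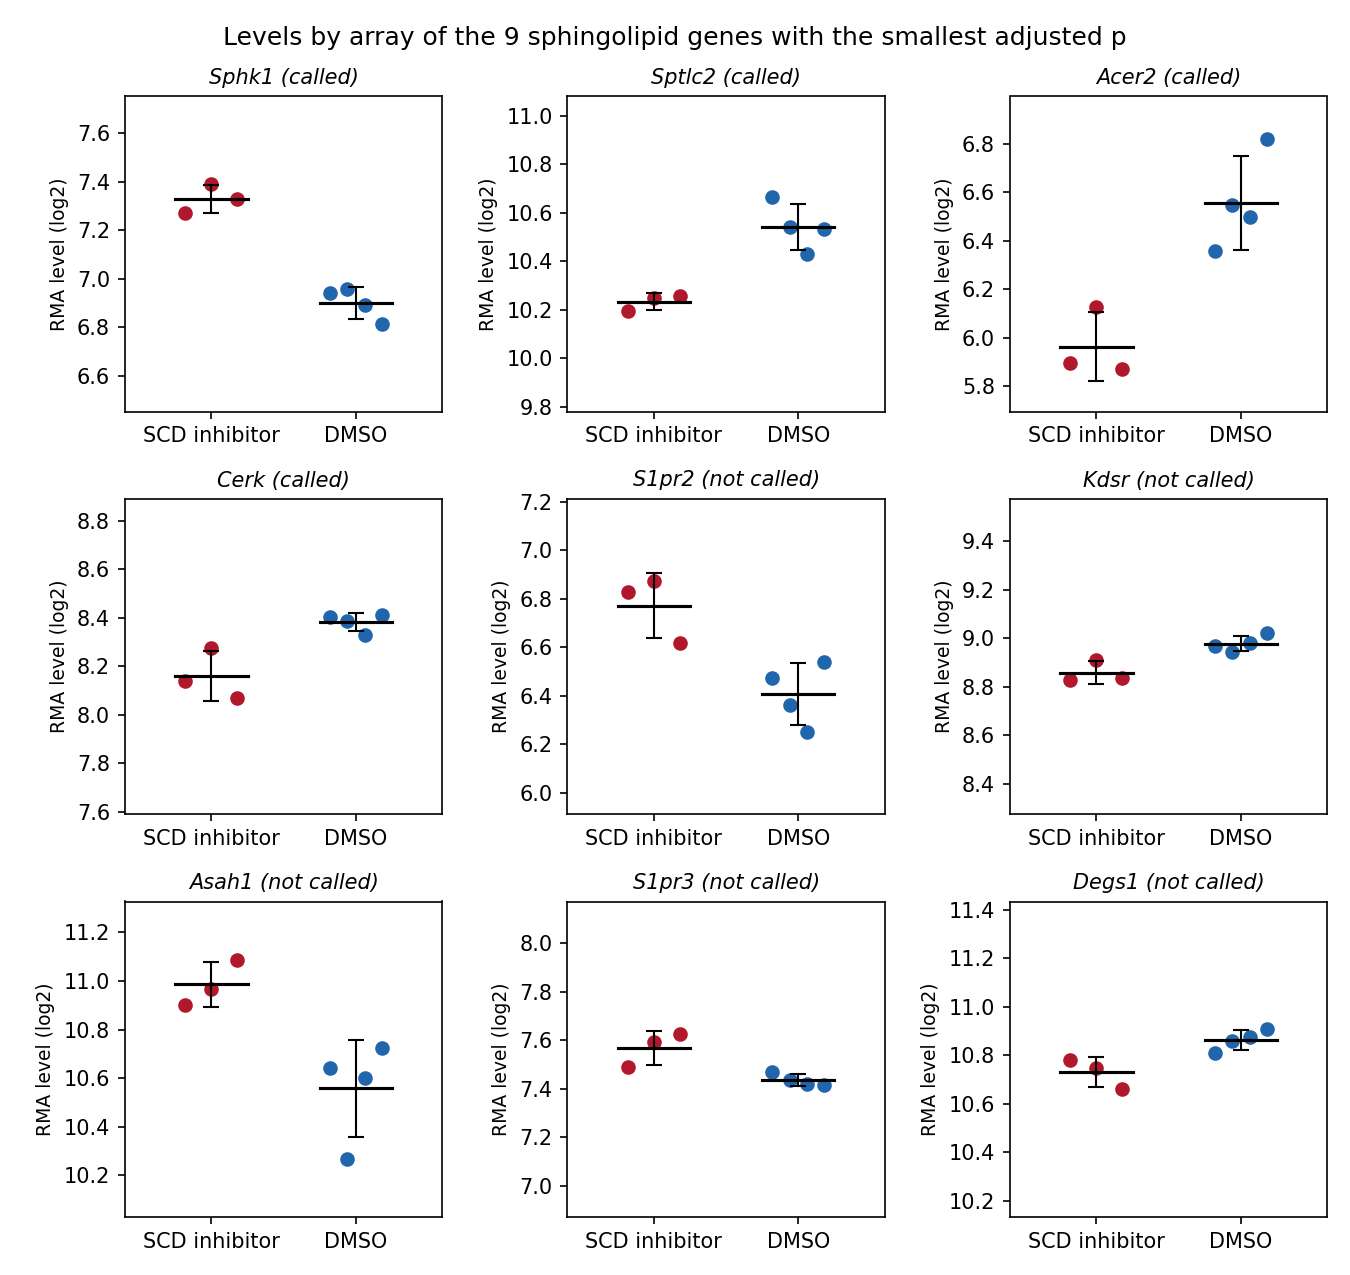
RMA level (log2) on each array of the 9 sphingolipid genes with the smallest adjusted p, SCD inhibitor (red, n = 3) left of DMSO (blue, n = 4), with means as bars and SD as error bars, each panel spanning the same height on its axis. In all 9 genes no inhibitor array overlaps the DMSO arrays, and Sphk1 has the smallest adjusted p.

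In 11 of the 36 genes the arrays of both groups did not overlap, 5 above and 6 below DMSO, which is 30.6% of them. Over all genes this held for 17.3%, of which 8.30% were above and 9.02% below. All 11 lay above the median level, where the share was 39.3% of the 28 sphingolipid genes and 30.8% of all genes. The 5 above were Sphk1, Asah1, S1pr2, S1pr3 and Smpd1, and the 6 below were Acer2, Cerk, Sptlc2, Degs1, Kdsr and Ormdl1. At an unadjusted p under 0.05 there were 12 genes, or 33.3%, against 21.9% of all genes, and above the median level the shares were 42.9% and 38.3%. Equal stored values can narrow the spread within a group: 16 of the 36 genes had 1 value on 3 or more of the 7 arrays, as did 54.6% of all genes.

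**Figure D4:**
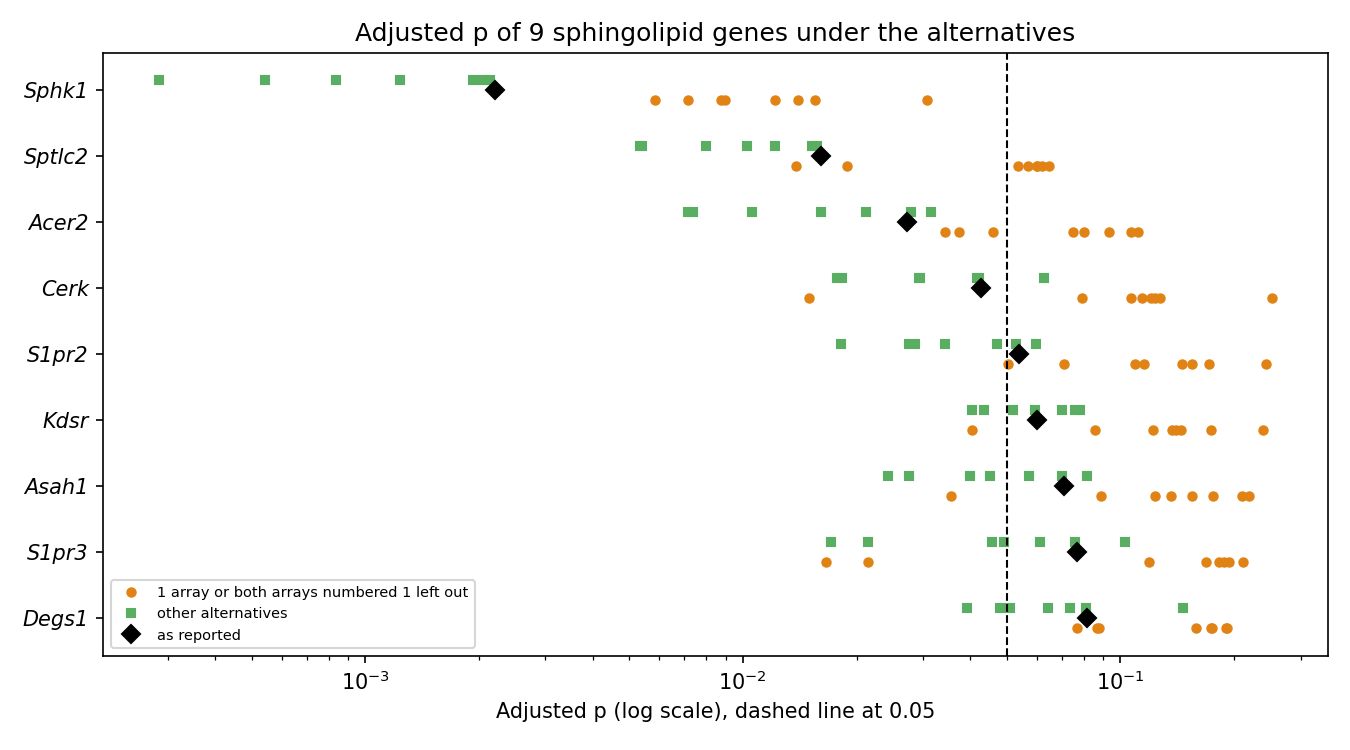
Adjusted p (log scale) of 9 sphingolipid genes called as reported or in at least 1 of the alternatives plotted, as reported (diamonds), with arrays left out (orange circles) and under the alternatives that keep all arrays and add no block (green squares), with the threshold of 0.05 dashed. Sphk1 stays left of the line throughout, while each of the other genes has points on both sides.

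Differences between related genes are described for 7 pairs, chosen after the values were seen. The pairs were isoenzymes, subunits, regulators or receptors. The difference between both genes on each array entered an exact two-sided permutation test over the arrays. The 35 relabellings of 3 against 4 arrays cannot give a p below 0.0571. Sphk1 was higher relative to Sphk2 by 0.45, with no overlap between groups, and reached that smallest p (exact p = 0.0571, adjusted over the 7 pairs 0.1). The same p was reached by Sptlc2 against Sptlc1 (-0.25), Acer2 against Acer3 (-0.34) and Asah1 against Asah2 (0.34). Ormdl1 against Ormdl3 (-0.40, exact p = 0.114), S1pr2 against S1pr3 (0.23, exact p = 0.171) and Sgms2 against Sgms1 (0.03, exact p = 0.571) overlapped. No pair could pass in this design. The pairs were picked from the same values, so these p-values are no test of whether related genes differed in response.

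The wider pathway was described through 56 measured genes of a list of 60 that take part in sphingolipid transport, glycosphingolipids, lysosomal breakdown and related steps. Of these 7 rose and 8 fell, 26.8% against 8.00% of all genes. Of the 35 above the median level 14 were called, or 40%, against 14.9% of all genes above it. The list was chosen with earlier results of these data known, and it holds genes with other roles, such as Npc1. These shares therefore describe the list and are no test of the pathway. The count that rose was 3 without DMSO 2 and 2 without SCD inhibitor 2 or SCD inhibitor 3. The median difference of the 56 was -0.03, against -0.0037 over all genes.

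Tlcd3b, a relative of the ceramide synthases, read 7.69, 7.79 and 7.83 with the inhibitor and 8.76, 8.48, 8.73 and 8.70 in DMSO. It was 1.86-fold lower (log2 -0.89, SE 0.074, adjusted p = 9.21e-04 in limma) and was called in all 16 alternatives. Fa2h, which makes the 2-hydroxy fatty acids of some ceramides, read 4.67, 4.65 and 5.03 with the inhibitor and 5.54, 5.60, 5.66 and 5.69 in DMSO, a 1.78-fold decrease (adjusted p = 0.00363 in limma) that did not pass without both arrays numbered 1 (0.0594). Its mean level of 5.26 lay below the median gene level of 5.59. Cln8, a protein of the endoplasmic reticulum whose loss causes a neuronal storage disease, fell by 0.66 (SE 0.084) and kept its call in all 16 alternatives. Cert1, which carries ceramide from the endoplasmic reticulum to the Golgi, read 7.54, 7.93 and 7.82 with the inhibitor and 8.16, 8.27, 8.23 and 8.37 in DMSO. It fell by 0.50 (adjusted p = 0.0266 in limma), a call that ended without DMSO 1 (0.0579), DMSO 2 (0.0813), DMSO 3 (0.0784), DMSO 4 (0.0842) or SCD inhibitor 3 (0.0788). Gltp, a glycolipid carrier, fell by 0.27 (SE 0.037), and B4galt5, which makes lactosylceramide, fell by 0.14 (SE 0.022). St3gal2, a sialyltransferase of gangliosides, rose by 0.15 (adjusted p = 0.0167 in limma), and did not pass without DMSO 2 (0.0511), SCD inhibitor 1 (0.0522) or SCD inhibitor 2 (0.0648).

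Npc1, a membrane protein that exports cholesterol from lysosomes, read 9.09, 9.15 and 9.24 with the inhibitor and 9.53, 9.66, 9.62 and 9.64 in DMSO, a 1.37-fold decrease (log2 -0.45, SE 0.046). Gm2a, the activator that presents ganglioside to hexosaminidase, read 10.08, 10.08 and 10.12 with the inhibitor and 10.45, 10.42, 10.58 and 10.55 in DMSO and fell by 0.41 (SE 0.042). Both were called in all 16 alternatives. Gla, the lysosomal alpha-galactosidase, read 9.03, 9.20 and 9.25 with the inhibitor and 8.74, 8.44, 8.70 and 8.64 in DMSO, a 1.44-fold increase (log2 0.53, SE 0.085). Its adjusted p in limma was 0.0128, and 0.0602 without SCD inhibitor 2 and 0.061 without SCD inhibitor 3. Hexa, the alpha subunit of hexosaminidase, rose by 0.29 (SE 0.046), with adjusted p in limma of 0.0571 without SCD inhibitor 2 and 0.0558 without SCD inhibitor 3. Npc2, the soluble partner of Npc1, rose by 0.20 (SE 0.045, adjusted p = 0.0395 in limma) and held its call only without DMSO 3 among the fits that leave out 1 array, the others giving an adjusted p of 0.063 to 0.128. Psap, the precursor of the saposins, read 11.94 to 11.96 with the inhibitor and 11.91 to 11.98 in DMSO (difference 0.0047, adjusted p = 0.923 in limma).

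**Figure D5:**
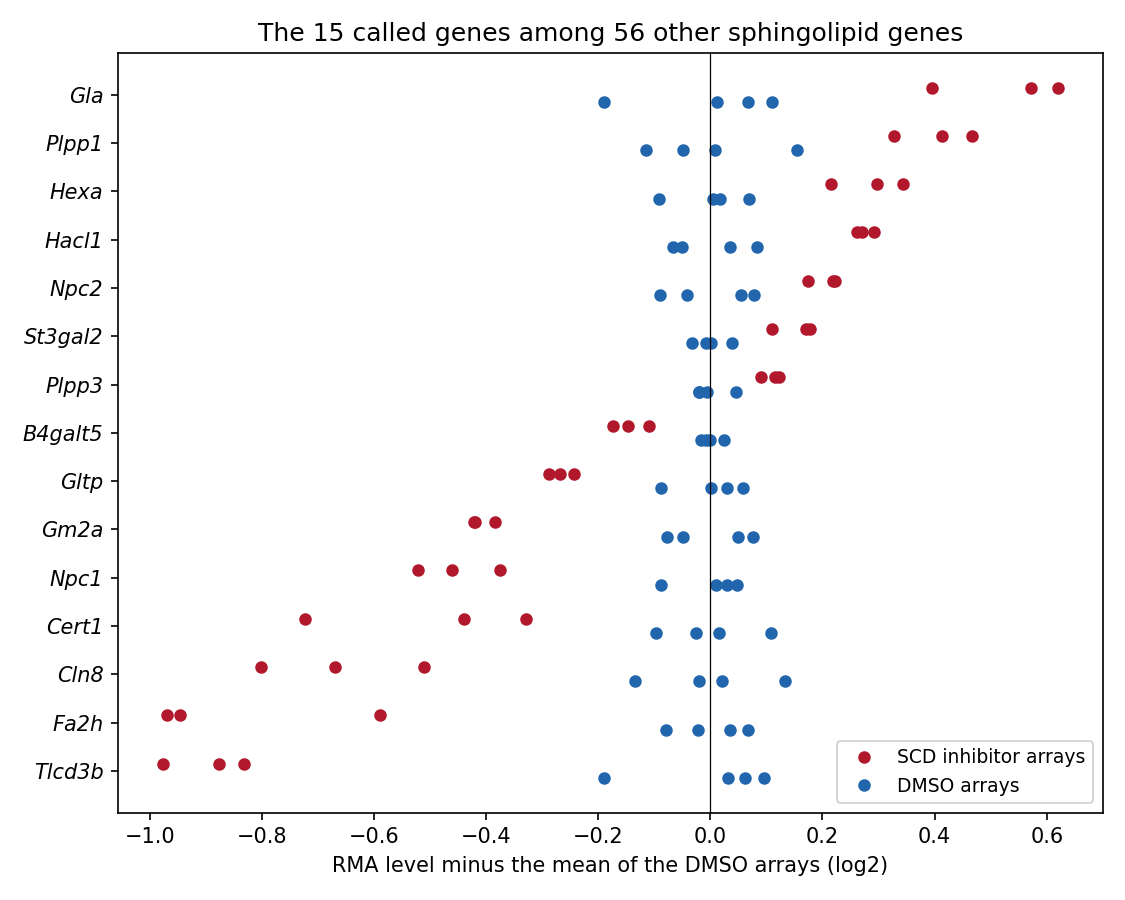
Level on each array minus the mean of the DMSO arrays (log2) for the 15 called genes among the 56 other sphingolipid genes, with SCD inhibitor arrays in red above the DMSO arrays in blue. In each of the 15 the groups do not overlap, from Tlcd3b at -0.89 to Gla at 0.53.

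Hacl1, a peroxisomal lyase of 2-hydroxy acyl-CoAs, read 9.18, 9.16 and 9.15 with the inhibitor and 8.97, 8.84, 8.82 and 8.92 in DMSO. It rose by 0.27 (SE 0.040) and was called in all 16 alternatives. Plpp1 and Plpp3 are membrane phosphatases of lipid phosphates that can act on sphingosine 1-phosphate. Plpp1 rose by 0.40 (SE 0.067, adjusted p = 0.0148 in limma), and was not called without DMSO 1 (0.0552), DMSO 2 (0.0501), SCD inhibitor 2 (0.064) or SCD inhibitor 3 (0.0686). Plpp3 rose by 0.11 (SE 0.023, adjusted p = 0.0329 in limma), a call that ended without DMSO 2 (0.0871), DMSO 3 (0.0867), DMSO 4 (0.0901), SCD inhibitor 1 (0.051), SCD inhibitor 2 (0.0989) or SCD inhibitor 3 (0.103). Beside the receptors above, S1pr4 and S1pr5 had differences of -0.0093 and 0.10, and the exporter Spns2 one of 0.03, none past the test.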

How the data were processed

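Total RNA of 7 samples was measured, each on 1 Affymetrix array. The authors deposited RMA values, per the submitters' processing notes, and the range of 2.23 to 13.2 fits a log2 scale. The RMA version is not given in the sources used here. Detection calls were not used, dim genes are therefore not called absent, and precision is limited by how many arrays there are.

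Of 28996 rows, 21218 had 1 symbol in the array annotation, 1881 several and 5897 were not listed. A gene with several rows was represented by its brightest row on average, and all 36 measured genes matched RefSeq (GRCm38.p6) by Entrez number. Groups came from the labels. All 7 arrays entered 1 model in limma 3.58.1 (R 4.3.3; lmFit and eBayes, 5 residual and 1.68 prior degrees of freedom), with p adjusted over 18820 genes by Benjamini and Hochberg, and the code was tested on simulated data. Every measured gene of the list was described, and of the other sphingolipid genes every called one. Psap, S1pr4, S1pr5 and Spns2 and the 7 pairs of related genes were chosen after their values were seen. The genes, lists and alternatives were chosen with earlier results of these data known. The 16 alternatives were a replicate block, a further quantile normalization, median centring, dropping the dimmest 25% or 50% of genes, averaging a gene's rows, trend and robust options, array weights, leaving out each array and leaving out both arrays numbered 1. Promoters are RefSeq's. Proteins were not used here.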

Additional observations from a re-analysis of the deposited data

Results flagged for a closer look

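Of 51 genes considered in the DMSO group, the group with 4 arrays, 6 had 1 array far from the others, beside a chance rate of about 1 in 20. Smpd2, stored at 1 value on all DMSO arrays, could not be examined. The rate makes no allowance for equal stored values. Cers3 read 3.66 on DMSO 3, against about 3.53 on the others. Sgms2 read 8.11 on DMSO 2, against 8.22. Acer1 read 3.53 on DMSO 2, against 3.47. Sphk2 read 7.96 on DMSO 1, against 7.81 to 7.83. Sgpp1 read 8.16 on DMSO 4, against 8.10 to 8.11. S1pr1 read 3.69 on DMSO 4, against 3.67. The whole range within DMSO was 0.013 to 0.15 in these genes, in 3 of them the other 3 arrays held 1 equal stored value, and none of the 6 genes was called.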

How the results depend on the processing

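No named gene was called in opposite directions under any of the 16 alternatives, and 26 of the 36 sphingolipid genes were called in none. Of the 36, 10 uncalled genes changed sign somewhere. The 1 sphingolipid gene called higher became 2 with the trend and robust options, with array weights and without both arrays numbered 1, 3 with the dimmest 25% of genes dropped, and 4 after a further quantile normalization, with the arrays centred and with the dimmest 50% dropped. It was 1 to 2 when 1 array was left out. The 3 called lower became 5 with the dimmest 50% dropped, 0 without both arrays numbered 1, and 0 to 3 with 1 array left out. They were 0 without DMSO 2, SCD inhibitor 1 or SCD inhibitor 3 and 1 without DMSO 3 or DMSO 4. The share of all genes called was 21.1% with the dimmest 50% dropped, where 28 sphingolipid genes were tested. It was 12.6% with the dimmest 25% dropped, where 32 were tested. After a further quantile normalization it was 11.0% and with the arrays centred 10.9%, against 8.00% as reported. Fewer genes are tested when dim ones are dropped, and fewer arrays when 1 is left out; otherwise the cause was not tested. Of the other sphingolipid genes, the 7 called higher became 4 without both arrays numbered 1 and 2 to 6 with 1 array left out, with 3 without DMSO 2 and 2 without SCD inhibitor 2 or SCD inhibitor 3. The 8 called lower were 7 to 8. Over all genes the 1505 calls (682 higher, 823 lower) became 980 without DMSO 4, 949 without SCD inhibitor 3 and 808 without both arrays numbered 1, the higher ones 1032 after a further quantile normalization, 1117 with the arrays centred, 434 without both arrays numbered 1 and 369 to 712 with 1 array left out, and the lower ones 374 without both arrays numbered 1 and 541 to 643 with 1 array left out. Replicate numbers 1, 2 and 3 are shared by both groups, and number 4 is only in DMSO. Same-numbered arrays deviated together with correlations of 0.17, 0.14 and 0.08 for numbers 1, 2 and 3. Differently numbered arrays had correlations of -0.17 to -0.0076, apart from SCD inhibitor 2 with DMSO 4 (0.16). The labels do not say that the numbers mark pairs, so they are not taken as pairs. Whether they mark pairs was not tested. The replicate block gives number 4 its own term, so DMSO 4 does not enter the difference and fewer degrees of freedom remain. Its differences were those of the fit without DMSO 4, such as -0.31 for Sptlc2 in both. Calls lost under it therefore do not measure pairing alone. With the replicate block 896 genes were called (437 higher, 459 lower), of the 36 sphingolipid genes 2 higher and 2 lower, and of the others 2 higher and 5 lower. Under that block S1pr2 (adjusted p = 0.0354 in limma) and Acer3 (0.0421) were called, while 10 calls were lost, those of Sptlc2 (0.114), Cerk (0.101), Cert1 (0.0584), Gltp (0.0829), B4galt5 (0.112), St3gal2 (0.053), Gla (0.0985), Hexa (0.0568), Npc2 (0.169) and Plpp3 (0.188).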
